A study of Homo sapiens with 4 samples.

Results

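Fibronectin and 9 other secreted glycoproteins of the extracellular matrix were followed in bulk RNAseq of a melanoma spheroid model. The 10 genes are FN1, TNC, THBS1, THBS2, SPARC, SPP1, POSTN, TGFBI, FBN1 and VTN, taken by name from 56304 gene rows, and all 10 had a row. The libraries came from MV3 cells, an established human line labelled as highly metastatic melanoma, which stably carried an H2B-GFP reporter of chromatin. Spheroids of 50000 cells and 1 mm in diameter were kept in rat tail collagen I until day 2. A biopsy punch of 1 mm then removed the core, and a wider one of 3 mm removed the surrounding invasion zone, with 2 libraries per zone numbered 1 and 2. All 4 libraries shared the line, the reporter, the collagen and the day. Because the punch cut straight down through the gel, a core library can also hold some invaded cells. The comparison asks which of these genes differed between the core and the cells that had invaded the collagen.

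Fibronectin is a large adhesive glycoprotein that cells assemble into fibrils through integrins, mainly the α5β1 heterodimer. Matricellular proteins such as tenascin-C, the thrombospondins, SPARC, osteopontin and periostin sit in the matrix without being its main structural elements, and they modulate adhesion, growth factor activity and matrix assembly. In melanoma, fibronectin, tenascin-C and SPARC are well known as products of invasive cells. The collagen of the gel was rat protein, and the counts describe human transcripts.

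Depth differed by replicate, with 36363358 and 37591782 counts in the replicate 1 libraries of the core and the invasion zone and 14983135 and 11789243 counts in those of replicate 2. Values are given as CPM, counts per library total on a per-million scale, and the trimmed mean (TMM) factors that correct these totals lay between 0.985 and 1.01. Libraries of a zone were not duplicates of each other, with a chi-square of at least 31.9 per degree of freedom. Nothing in the sources used here states that the 2 libraries of a zone came from separate cultures. The p-values therefore cover these libraries only, and the variance behind them is shared in part across all genes. Of 8 melanocyte lineage markers, SOX10 and TYR had no count in any library, 6 in all stayed under 1 CPM, and MITF reached 3.39 CPM at most, so the defining markers of the melanocyte lineage were at or near 0 in a line labelled as melanoma. Bulk RNA cannot tell fewer cells that express a gene from less RNA of it per cell.

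Of all counts, the 10 genes together took 1.00% and 0.753% in core replicates 1 and 2, and 0.573% and 0.360% in invasion zone replicates 1 and 2. Within a replicate, their summed CPM in the invasion zone was 57.1% of the core value in replicate 1 and 47.8% in replicate 2. SPARC, FN1 and TGFBI supplied between 84.1% and 86.9% of the sum in each library. The part supplied by FN1 was 26.5% and 24.8% in the core and 19.0% and 19.8% in the invasion zone, whereas that of SPARC was 45.8% and 46.8% against 55.4% and 53.0%. Without FN1 and TGFBI, the sum in the invasion zone was 68.2% and 54.9% of the core value.

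**Figure D1:**
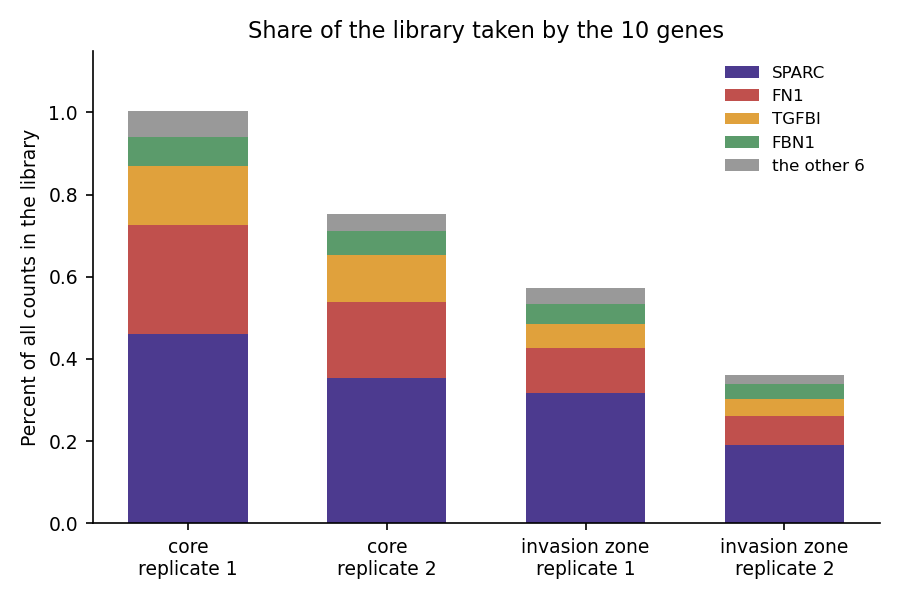
Percent of all counts in each library (vertical axis, from 0) that fell on the 10 genes, stacked by gene, for the 4 libraries. The bars of both core libraries (1.00% and 0.753%) are taller than those of both invasion zone libraries (0.573% and 0.360%), and SPARC is the largest segment in each.

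Of the 10 genes, 8 had enough counts to be tested across the zones, and SPP1 and VTN did not. All 8 had a negative log2 fold change, always given here as invasion zone relative to core, with a median of -0.76 against -0.01 over the 15529 genes tested. In the quasi-likelihood test of edgeR without a replicate term, 0 of the 8 were called at an adjusted p under 0.05 with a 2-fold change, and their adjusted p ran from 0.128 to 0.427. That test called 0% of all genes lower and 0% higher. Its smallest adjusted p over all genes was 0.128, so it could not set the 8 apart. At an unadjusted p under 0.05, 909 genes were lower and 454 higher by 2-fold. With the replicate number as a block, which pairs the core and invasion zone libraries of the same number, FN1 and TGFBI were called lower and none of the 8 higher, where 7.06% of all genes were called lower and 3.41% higher. Under the block 7 of the 8 passed the adjusted p alone with a lower level in the invasion zone, against 19.4% of all genes. All 8 were lower in the invasion zone within both replicates, which held for 40.2% of all genes, and in 7 the zones were separate, each core library exceeding each invasion zone library, which held for 30.0% of all genes. Since the genes were chosen with earlier results known, these counts are a description. DESeq2 without a replicate term also called FN1 and TGFBI, as did the edgeR test without a filter on low counts.

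**Figure D2:**
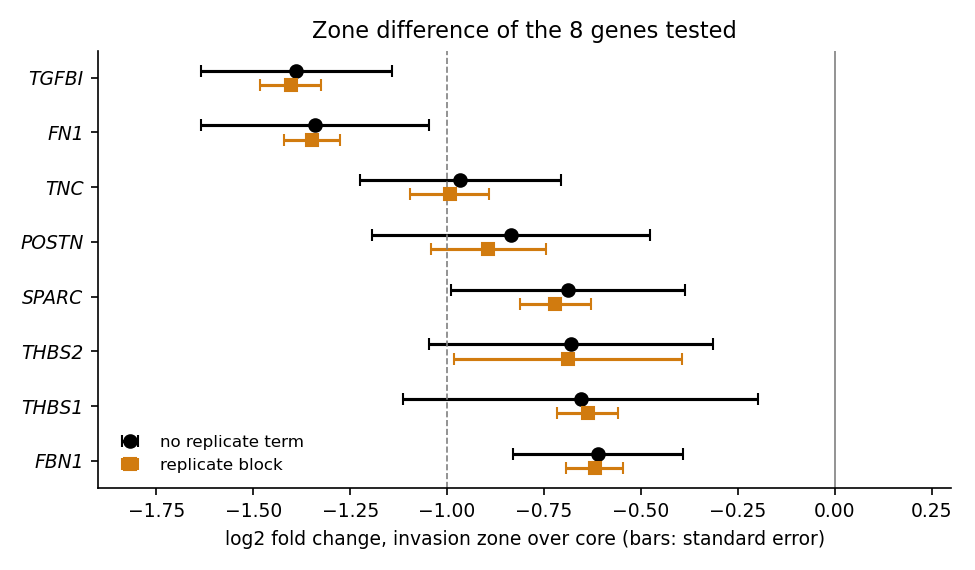
Log2 fold change, invasion zone relative to core (horizontal axis), for the 8 genes tested, from edgeR without a replicate term (black circles) and with the replicate block (orange squares), with bars of 1 standard error. All 8 lie left of 0, TGFBI (-1.39) and FN1 (-1.34) lie past the dashed line at -1, and the bars are shorter with the block.

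FN1 (ENSG00000115414, GRCh38 chromosome 2, 215360440 to 215436073, minus strand) encodes fibronectin. In replicates 1 and 2 it had 2662 and 1865 CPM in the core, against 1089 and 713 CPM in the invasion zone. Both core libraries were high, both invasion zone libraries were low, and the zones did not overlap. Expressed as a share of the library, FN1 took 0.266% and 0.186% in the core and 0.109% and 0.0713% in the invasion zone. The zone means were 2263 ± 564 CPM for the core and 901 ± 266 CPM for the invasion zone (SD, n = 2 each), and the log2 fold change was -1.34 (standard error 0.29, adjusted p = 0.13 in edgeR without a replicate term). With the replicate block the log2 fold change was -1.35 (standard error 0.07, adjusted p = 3.35e-05). The ratio of core to invasion zone was 2.45 in replicate 1 (exact 95% interval 2.42 to 2.47) and 2.62 in replicate 2 (2.55 to 2.68), where the intervals cover counting error only. By raw counts FN1 ranked 19 and 22 among all genes of the core, but only 50 and 124 in the invasion zone.

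TGFBI (ENSG00000120708, chromosome 5, 136028988 to 136063818, plus strand) encodes a secreted protein with fasciclin-type domains that is induced by TGF-beta and binds collagen and integrins. Its level was 1439 and 1148 CPM in the core and 589 and 406 CPM in the invasion zone. As for FN1, the zones were separate and the core was the higher in each replicate. The log2 fold change was -1.39 (standard error 0.25, adjusted p = 0.128 in edgeR without a replicate term), or -1.40 (standard error 0.08, adjusted p = 3.68e-05) with the replicate block. The core to invasion zone ratio was 2.44 (exact 95% interval 2.40 to 2.48) in replicate 1 and 2.83 (2.74 to 2.92) in replicate 2. There were 1.85 and 1.62 FN1 counts per TGFBI count in the core and 1.85 and 1.76 in the invasion zone, so the proportion of these transcripts overlapped between the zones. Of all genes tested, 4.79% had a lower log2 fold change than TGFBI and 5.11% a lower one than FN1. FN1 and TGFBI also stayed past 2-fold with each library left out, at log2 values between -1.69 and -1.03, and without core replicate 1 neither was called.

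The upstream sequences of FN1 and TGFBI, the pair called with the block, are shown because their transcripts shifted alike while the windows differ in content. The sequences are from RefSeq on GRCh38.p14, which held an entry for each of the 10 genes, and run 5′ to 3′ on the strand of the gene from 250 to 11 bases before its start. FN1 is at chr2:215436079-215436318 on the minus strand and TGFBI at chr5:136028738-136028977 on the plus strand. Capitals mark the cAMP response element (TGACGTCA), the CCAAT box (CCAAT), the start of a TATA box (TATAA) and the GC box (GGGCGG), each searched on both strands.
FN1: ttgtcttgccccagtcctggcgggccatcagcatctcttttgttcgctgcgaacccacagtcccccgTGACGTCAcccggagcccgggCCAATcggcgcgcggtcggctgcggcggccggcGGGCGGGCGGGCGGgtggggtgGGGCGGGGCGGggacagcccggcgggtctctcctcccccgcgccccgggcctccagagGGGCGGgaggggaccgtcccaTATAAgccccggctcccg
TGFBI: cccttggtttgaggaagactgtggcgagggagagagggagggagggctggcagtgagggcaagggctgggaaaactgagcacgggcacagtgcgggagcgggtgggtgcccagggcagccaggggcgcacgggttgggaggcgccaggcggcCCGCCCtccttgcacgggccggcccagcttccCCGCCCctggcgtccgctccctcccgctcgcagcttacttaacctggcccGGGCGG
The FN1 window held the cAMP response element 183 bases before the start, the CCAAT box at 162 and the TATAA letters at 28, beside overlapping GC boxes. The TGFBI window held only GC boxes, at 98, 66 and 16 bases before the start. Both windows were rich in G and C, at 76.2% for FN1 and 72.5% for TGFBI. Among 35116 windows of the same length, 1 chromosome left out, 1.57% held TGACGTCA, 31.4% CCAAT, 18.6% TATAA and 41.4% GGGCGG. TNC, THBS2 and POSTN also had TATAA, 27, 29 and 29 bases before their starts. POSTN had it farther upstream too, at 141 and 180 and, on the opposite strand, at 181. The core of the hypoxia response element (ACGTG) occurred in 17.8% of the windows and, among the 10 genes, in that of THBS2. A match of letters describes the window and was not tested as a site of binding.

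SPARC (ENSG00000113140, chromosome 5, 151661096 to 151686975) encodes osteonectin, a collagen-binding matricellular protein that promotes cell rounding. It had 4598 and 3525 CPM in the core and 3176 and 1905 CPM in the invasion zone, and by raw counts it ranked between 5 and 14 among all genes in the 4 libraries. The invasion zone was lower in both replicates, but invasion zone replicate 1 came close to core replicate 2. The log2 fold change was -0.69 (standard error 0.30, adjusted p = 0.234 in edgeR without a replicate term) and -0.72 with the block (adjusted p = 0.000469), under a 2-fold change. It was -1.12 without invasion zone replicate 1 (adjusted p = 0.0186 in edgeR) and between -0.46 and -0.36 without core replicate 1 or invasion zone replicate 2. Since counts of a pair of genes within a library do not depend on its scaling, FN1 was also set against SPARC. There were 57.9 and 52.9 FN1 counts per 100 SPARC counts in the core and 34.3 and 37.4 in the invasion zone. TGFBI followed the same order, with 31.3 and 32.6 counts per 100 SPARC counts in the core and 18.5 and 21.3 in the invasion zone. FBN1 did not, with 15.3 and 16.2 per 100 in the core and 15.3 and 18.7 in the invasion zone. These pairs were chosen after their values were seen and were not tested.

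TNC (ENSG00000041982, chromosome 9, 115019575 to 115118207) encodes tenascin-C, a hexameric matricellular protein that interferes with adhesion to fibronectin. It had 238 and 200 CPM in the core and 138 and 87.3 CPM in the invasion zone, and the zones were separate. Its log2 fold change was -0.97 (standard error 0.26, adjusted p = 0.138 in edgeR without a replicate term), and -0.99 with the block (adjusted p = 0.000187), which left it just under the 2-fold limit. Under the GC and length correction TNC was farther from that limit, at -0.73, or -0.74 with the block. With core replicate 2 left out it was called (-1.10, adjusted p = 0.0223 in edgeR), as it was with invasion zone replicate 1 left out (-1.35, adjusted p = 0.00441), but not with either of the other libraries left out. The core to invasion zone ratio was 1.72 in replicate 1 and 2.29 in replicate 2, with exact 95% intervals of 1.67 to 1.78 and 2.13 to 2.46 that did not overlap. TNC counts per 100 FN1 counts were 8.95 and 10.7 in the core and 12.7 and 12.2 in the invasion zone.

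THBS1 (ENSG00000137801, chromosome 15, 39581079 to 39599466) encodes thrombospondin-1, which activates latent TGF-beta and inhibits angiogenesis. It had 304 and 146 CPM in the core and 189 and 98.4 CPM in the invasion zone. Here the zones overlapped, since invasion zone replicate 1 lay above core replicate 2, although the core was the higher one within each replicate. The ratio of core to invasion zone was 1.60 in replicate 1 (exact 95% interval 1.56 to 1.65) and 1.48 in replicate 2 (1.38 to 1.59), intervals that overlapped. The log2 fold change was -0.66 (standard error 0.46, adjusted p = 0.427 in edgeR without a replicate term) and -0.64 with the block (standard error 0.08, adjusted p = 0.000385). Leaving out core replicate 1 gave 0.001 and leaving out invasion zone replicate 2 gave -0.26, whereas THBS1 was called with core replicate 2 (-1.10) or invasion zone replicate 1 (-1.22) left out. A part of its exons, 694 of 9158 bases, is shared with genes on the opposite strand, and the strand setting of the counting is not given in the sources used here.

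THBS2 (ENSG00000186340, chromosome 6, 169215780 to 169254050) encodes thrombospondin-2, a related trimeric protein that also binds matrix proteases. It was scarce, with 134 and 45 counts in the core and 92 and 20 in the invasion zone, which gave 3.69 and 3.00 CPM against 2.45 and 1.70 CPM. Both core libraries were above both invasion zone libraries. The log2 fold change of -0.68 did not pass the adjusted p without the block (0.315) or with it (0.0978), and THBS2 was the exception among the 8 genes under the block. Its antisense partner THBS2-AS1 covers 2249 of its 7197 exonic bases, which leaves its few counts less certain. THBS1 had 82.5 and 48.5 times as many counts as THBS2 in the core and 77.4 and 58.0 times as many in the invasion zone.

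POSTN (ENSG00000133110, chromosome 13, 37562583 to 37598844) encodes periostin, a fasciclin-domain relative of TGFBI that links fibronectin, tenascin-C and collagen. It had 86.3 and 68.1 CPM in the core and 58.2 and 28.5 CPM in the invasion zone, with the invasion zone lower in both replicates. The difference varied by replicate, with a core to invasion zone ratio of 1.48 in replicate 1 (exact 95% interval 1.40 to 1.57) and 2.39 in replicate 2 (2.11 to 2.71). Its log2 fold change was -0.83 (standard error 0.36, adjusted p = 0.228 in edgeR without a replicate term) and -0.89 with the block (adjusted p = 0.00171). POSTN counts per 100 TGFBI counts were 6.0 and 5.94 in the core and 9.87 and 7.02 in the invasion zone, since TGFBI differed by more between the zones than POSTN, which was itself lower in the invasion zone. Without invasion zone replicate 1 the log2 fold change of POSTN was -1.46 (adjusted p = 0.00359 in edgeR), and without invasion zone replicate 2 it was -0.42.

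FBN1 (ENSG00000166147, chromosome 15, 48408313 to 48645721) encodes fibrillin-1, the backbone of microfibrils, on which latent TGF-beta complexes are stored and whose deposition in culture depends on fibronectin fibrils. It had 704 and 572 CPM in the core and 486 and 356 CPM in the invasion zone. The zones were separate, and the difference was the smallest of the 8 genes, with a log2 fold change of -0.61 (standard error 0.22, adjusted p = 0.181 in edgeR without a replicate term) or -0.62 with the block (adjusted p = 0.000344). Its core to invasion zone ratio was 1.45 (exact 95% interval 1.42 to 1.48) in replicate 1 and 1.60 (1.55 to 1.67) in replicate 2.

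SPP1 and VTN encode osteopontin and vitronectin, integrin ligands with an RGD sequence that are abundant in bone and in plasma, respectively. SPP1 (ENSG00000118785, chromosome 4, 87975667 to 87983532) had 6 and 4 counts in the core and 7 and 0 in the invasion zone. Its highest level was 0.267 CPM, and the 0 in invasion zone replicate 2 allows up to 0.254 CPM by a limit of 3 counts. VTN (ENSG00000109072, chromosome 17, 28367284 to 28373091) had 11 and 7 counts in the core and 7 and 2 in the invasion zone, at most 0.467 CPM. The exact 95% interval of the VTN ratio of invasion zone to core ran from 0.202 to 1.74 in replicate 1 and from 0.0368 to 1.91 in replicate 2, so a difference between the zones was not detectable at this depth. Of its 1904 exonic bases, 329 are shared with a gene on the same strand.

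**Figure D3:**
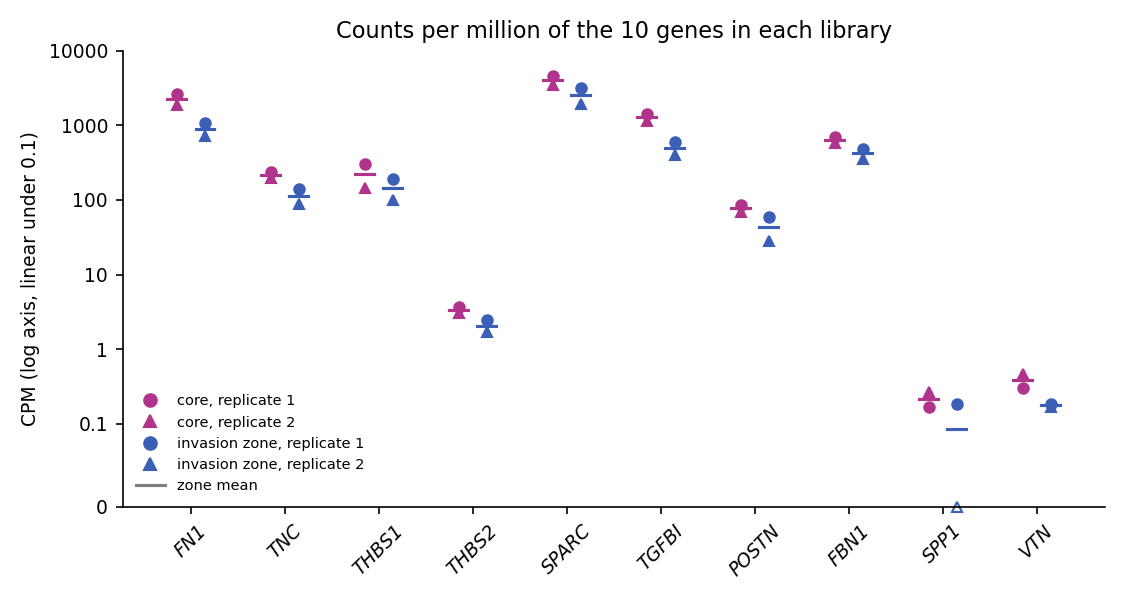
CPM of the 10 genes (vertical log axis, linear under 0.1) in each library, with magenta for the core, blue for the invasion zone, circles for replicate 1, triangles for replicate 2, bars for zone means and an open symbol for a count of 0. Levels run from under 0.5 CPM for SPP1 and VTN to between 1905 and 4598 CPM for SPARC, and THBS1 is the tested gene whose zones overlap.

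Levels between genes were compared per kilobase of exon. SPARC was the highest in the core at 876 ± 164 CPM per kilobase (SD, n = 2), followed by TGFBI (168 ± 26.7) and FN1 (131 ± 32.7), whose libraries overlapped. FBN1 (34.5 ± 5.06) and THBS1 (24.5 ± 12.2) came next and overlapped with each other, as did THBS1 and TNC (22.8 ± 2.82). POSTN had 14.1 ± 2.35, THBS2 0.465 ± 0.0670, VTN 0.202 ± 0.0612 and SPP1 0.0298 ± 0.00994 CPM per kilobase. The order was the same in the invasion zone, where SPARC had 548 ± 194, TGFBI 64.5 ± 16.8, FN1 52.3 ± 15.4, FBN1 22.7 ± 4.94, THBS1 15.7 ± 7.03, TNC 11.8 ± 3.75 and POSTN 7.93 ± 3.84 CPM per kilobase. In that zone each of FBN1, THBS1, TNC and POSTN overlapped with the next of them. Exonic length adds up all annotated transcripts and exceeds that of the canonical transcript, with 17216 against 8390 bases for FN1, 7717 against 2712 for TGFBI and 7250 against 1561 for SPP1, so the values per kilobase are low by construction and to unequal degrees. The counts do not resolve the spliced forms of FN1.

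**Figure D4:**
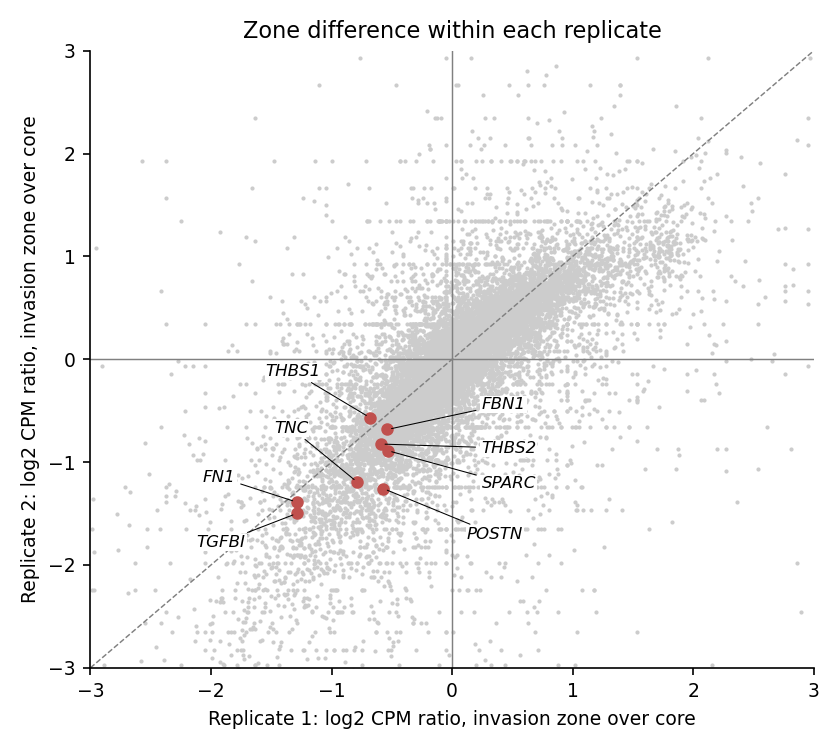
Log2 ratio of CPM in the invasion zone over the core in replicate 1 (horizontal axis) and replicate 2 (vertical axis) for the genes tested, in grey, with the 8 genes in red. The axes span -3 to 3, and the dashed line marks equal ratios. Left out are 496 of 15529 genes, which lie past the axes or lack a count in some library. All 8 lie in the lower left of the plot, negative on both axes, FN1 and TGFBI the farthest from 0 in replicate 1 and POSTN and TNC well below the dashed line.

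The profile of FN1 over the 4 libraries was compared with others by the distance between centred log2 CPM. Used were the 2607 genes, FN1 included, with a mean of at least 100 CPM. The 5 nearest genes were TIPARP (distance 0.0961), COL4A5 (0.102), TSC22D1 (0.112), TGFBI (0.153) and AEBP1 (0.193). TIPARP, a member of the poly(ADP-ribose) polymerase family, had 290 and 205 CPM in the core and 116 and 82.9 CPM in the invasion zone. COL4A5, a basement membrane collagen chain, had 169 and 127 CPM against 76.0 and 48.4 CPM. Of the other genes followed here, TNC ranked 45, SPARC 132, FBN1 185 and THBS1 240. POSTN, THBS2, SPP1 and VTN were under 100 CPM and had no rank. With 4 libraries many genes share such a profile, and the distance is a description only.

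Related genes were read from 4 lists of 116 genes in all, of which 0 were called in either direction without a replicate term. The counts with the block stand beside the 7.06% of all genes that it called lower and the 3.41% that it called higher. Under the block, 16 of the 37 tested genes among 53 other matrix glycoproteins were called lower and 3 higher, with a median log2 fold change of -1.07 in the test without a replicate term. The 16 include scarce genes with a mean under 5 CPM. TNFAIP6 (-5.19), WISP1 (-3.51) and WISP2 (-3.48) are among them and were chosen after their values were seen. A scarce gene can pass the count filter through its core libraries alone. The lists were drawn up with earlier results known, so these counts are a description. LTBP1, which tethers latent TGF-beta to the matrix, had 24.8 and 16.6 CPM in the core and 2.45 and 1.44 CPM in the invasion zone. EMILIN1, an elastic fibre glycoprotein, had 209 and 148 CPM against 68.6 and 31.6 CPM. LTBP3 (264 and 193 against 110 and 57.3 CPM), MFAP2 (147 and 102 against 65.0 and 35.6 CPM) and PXDN (1852 and 1263 against 892 and 447 CPM) were called lower as well. By contrast, the CCN family members CTGF and CYR61, both well-known targets of YAP, were called higher in the invasion zone under the block. CTGF had 74.5 and 93.8 CPM in the core and 211 and 264 CPM in the other zone, with a log2 fold change of 1.49 (adjusted p = 3.35e-05 in edgeR with the block). CYR61 had 233 and 336 CPM against 575 and 758 CPM, a log2 fold change of 1.22. The third, MATN3 (2.12 and 3.40 against 5.03 and 6.19 CPM), was chosen after its values were seen. EMILIN2 and FSTL1, positive at 0.36 and 0.18, were not called.

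Among 20 receptors of these proteins, 15 were tested, with a median of -0.21. The block called 7.06% of all genes lower and 3.41% higher, and the list is too short to be set against those shares. Under the block, 0 of the 15 receptors were called higher and 2 lower. These were ITGB8, a receptor chain that activates latent TGF-beta, at 181 and 84.8 CPM in the core and 47.4 and 9.67 CPM in the invasion zone, and ITGB3, the vitronectin receptor chain, at 7.81 and 10.7 CPM against 1.01 and 0.254 CPM. ITGB3, chosen after its values were seen, shares exons with a readthrough gene. Its 0.254 CPM in invasion zone replicate 2 is at the limit of 3 counts in that library. ITGB5, ITGA3, ITGAV and the syndecan SDC3 had log2 fold changes of -0.70, -0.61, -0.57 and -0.98 and were under 2-fold. ITGB1, the β1 chain of the main fibronectin receptor, had 1104 and 1149 CPM in the core and 1210 and 1218 CPM in the invasion zone (log2 fold change 0.10, adjusted p = 0.304 in edgeR with the block). Its partner ITGA5, likewise chosen after its values were seen, had 287 and 303 CPM against 279 and 246 CPM (-0.18, adjusted p = 0.121 with the block in edgeR). The hyaluronan receptor CD44, which also binds osteopontin, had 2780 and 3090 CPM against 3285 and 3224 CPM (0.14, not called). SDC1 (0.76), PLAUR (0.32) and SDC4 (0.03) were on the positive side, all under 2-fold.

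Of 28 genes of matrix assembly and turnover, 22 were tested, 6 were called lower under the block and 0 higher, with a median of -0.60. TGM2, a transglutaminase that crosslinks fibronectin, had 1592 and 1229 CPM in the core and 608 and 312 CPM in the invasion zone. MMP2, a gelatinase, had 1240 and 755 CPM against 440 and 186 CPM. BMP1, the procollagen C-proteinase (87.1 and 69.0 against 34.3 and 23.7 CPM), and the serine protease HTRA1 (79.1 and 67.7 against 29.0 and 25.2 CPM) were called lower too. TIMP1 (-0.81) passed the adjusted p with the block (0.000167 in edgeR) but was under 2-fold. PLAU (0.01) passed neither limit (adjusted p = 0.973 in edgeR with the block). Of 15 TGF-beta ligands, receptors and signal transducers, all tested, 3 were called lower and 1 higher under the block, beside 7.06% and 3.41% of all genes, with a median of -0.26. TGFB3 had 18.1 and 18.0 CPM in the core and 8.59 and 4.83 CPM in the invasion zone, and TGFBR3, a co-receptor, had 189 and 108 against 107 and 32.8 CPM. TGFB2, chosen after its values were seen, had 3.55 and 3.47 against 1.86 and 1.02 CPM. SMURF2, a ubiquitin ligase of the pathway, was the gene called higher, at 134 and 179 against 285 and 343 CPM. The inhibitory SMAD7, a direct target of the pathway, had a log2 fold change of -0.50, and TGFBR2 and SMAD6 had -0.66 and -0.61. Each passed the adjusted p of edgeR with the block but was under 2-fold, and so was not called.

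**Figure D5:**
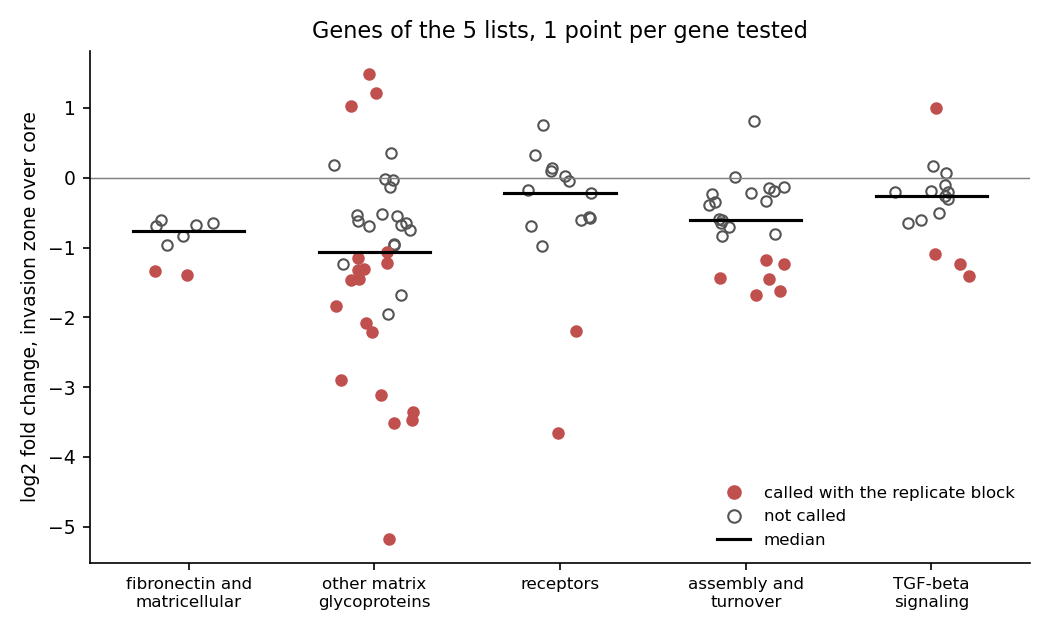
Log2 fold change, invasion zone relative to core, from edgeR without a replicate term (vertical axis) for each tested gene of the 10 genes followed here and of the 4 related lists, with filled points for genes called with the replicate block and a bar at the median. The medians are -0.76, -1.07, -0.21, -0.60 and -0.26 from left to right, and the 3 filled points above 1 among the other matrix glycoproteins are CTGF, CYR61 and MATN3.

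Markers of other cell types were read beside these values, since MV3 should be the only human cells in the gels. All 5 leukocyte and all 5 epithelial markers stayed under 1 CPM in each library. Of 5 endothelial markers, 4 stayed under 1 CPM, and the list summed to between 8.14 and 18.5 CPM in the core and between 0.933 and 6.12 CPM in the invasion zone, nearly all of it PECAM1. Of 6 fibroblast and mural markers, DCN and LUM had no count in any library and COL1A2 stayed under 1 CPM. That list summed to between 62.9 and 96.6 CPM in the core and between 18.6 and 42.1 CPM in the invasion zone, mostly from PDGFRA (93.7 and 58.6 against 38 and 13.7 CPM). Of its 3 tested genes PDGFRA was negative, while RGS5 (2.28 and 2.60 against 2.82 and 2.97 CPM) and MYH11 (0.578 and 1.60 against 1.20 and 1.78 CPM) were positive at 0.24 and 0.48 and not called. The part of these markers in the results was not tested. Of the counts, mitochondrial transcripts made up 1.72% and 1.13% in the core and 1.43% and 1.06% in the invasion zone, a difference by replicate more than by zone.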

How the data were processed

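For low-input bulk RNAseq of the 4 libraries, the authors cleared ribosomal reads with Bowtie, mapped to hg38 with STAR, counted unique reads per gene with HTSeq and deposited raw counts. Not given in the sources used here are versions, annotation and strand setting. Of 56306 rows, 2 without counts or a gene name were left out.

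In R 4.3.3, filterByExpr (minimum count 10, total 15) kept 15529 genes. The quasi-likelihood test of edgeR 4.0.16 with TMM scaling compared the zones, with Benjamini-Hochberg adjustment over all 15529. Calls required adjusted p below 0.05 and 2-fold change. Standard errors came from the F statistic, whose variance is shared in part across genes. With so few libraries, and more so with the block, that of a single gene rests largely on this shared variance. The procedure was checked on simulated counts with 200 changed genes. Without a replicate shift, the test recovered 200 both with and without the replicate block. With a shift shared by libraries of the same number, which is the number that the block uses, it recovered 0 without the block and 199 with it. An absence of calls without the block therefore does not show that the zones were alike. False calls without the shift were 4 without the block and 5 with it. With the shift they were 0 without the block and 4 with it. Recovery of changes of the members' size was not tested separately.

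The study names no replicate term, so the main test has none. Its protocol takes the core and then its corresponding invasion zone, which was read as pairing libraries by number, although no source states what the number marks. Deviations from the zone mean correlated at 0.58 between libraries of 1 number, across genes. The blocked value stands beside results whose call it changed.

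Alternatives were other scalings and count filters, DESeq2 1.42.0, limma 3.58.1 with voom, the block in each tool, an unadjusted p, no fold minimum, thinning and each library left out. A correction for GC content and length was chosen after seeing the data. The members and gene lists were chosen with earlier results of these data known. Named are the 10 members, up to 5 genes per direction with the largest change and a mean of at least 5 CPM from each of 4 lists, and the 5 genes nearest to FN1. Positions and lengths came from GENCODE 44 (GRCh38), which holds 98.1% of the identifiers. Intervals are exact binomial at 95% and cover counting error only.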

Additional observations from a re-analysis of the deposited data

How the results depend on the processing

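The members' log2 fold changes stayed negative in 127 of 128 refits (8 genes, 16 alternatives each). The exception was THBS1, at 0.001 without core replicate 1 and at -1.22 without invasion zone replicate 1. With the libraries left out in turn, FN1 ran from -1.69 to -1.03, TGFBI from -1.69 to -1.14, TNC from -1.35 to -0.67, SPARC from -1.12 to -0.36, POSTN from -1.46 to -0.42, FBN1 from -0.86 to -0.40 and THBS2 from -1.01 to -0.46. Leaving a library out leaves 1 in its zone, which is assumed to vary like the other zone. The GC and length correction without a replicate term gave FN1 -1.13, TGFBI -1.26, TNC -0.73 and THBS1 -0.54. It gave THBS2 -0.52, SPARC -0.65, POSTN -0.88 and FBN1 -0.43. These changes were smaller than in the main test for all but POSTN.

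Calls over all genes were 0 lower and 0 higher without a replicate term, and stayed at 0 with RLE and upper-quartile scaling, a minimum of 10 counts per library, no fold minimum, limma voom, thinning and the GC and length correction. They were 1097 lower and 530 higher with the replicate block, 846 and 427 without a low-count filter, 548 and 354 with DESeq2, 731 and 427 with DESeq2 and the replicate block, 1088 and 576 with limma voom and the replicate block, 996 and 787 with the GC and length correction and the replicate block, and 909 and 454 at an unadjusted p. Without single libraries they ran from 125 to 1137 lower and from 13 to 632 higher. Members called lower were 2 (FN1 and TGFBI) under each of these 7 settings, and from 0 to 6 without single libraries, namely 0 without core replicate 1, 4 without core replicate 2, 6 without invasion zone replicate 1 and 2 without invasion zone replicate 2. No member was called higher in any setting.

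Over the 4 related lists, 27 genes were called lower and 4 higher with the replicate block, 21 and 2 without a low-count filter, 17 and 3 with DESeq2, 18 and 3 with DESeq2 and the replicate block, 29 and 4 with limma voom and the replicate block, 25 and 5 with the correction and the replicate block, and 23 and 3 at an unadjusted p. Without single libraries the counts ran from 6 to 25 lower and from 1 to 4 higher.

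Shares of counts moved by less than 1 SD when only tested genes made up the total. Per kilobase of the longest transcript instead of all exons, the core levels became 247 for FN1, 25.8 for TNC, 0.575 for THBS2, 1177 for SPARC, 0.0531 for SPP1, 23.4 for POSTN, 277 for TGFBI and 55.0 for FBN1 CPM, and those of the invasion zone 98.2 for FN1, 13.1 for POSTN, 107 for TGFBI, 36.3 for FBN1 and 0.109 for VTN. The order of the genes was the same in the core. Depth limits SPP1, VTN and THBS2, and the causes of the changes between settings were not tested.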
